A study of Homo sapiens with 19 samples.

Results

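A549 cells grown as spheroids were compared with A549 cells grown as monolayers before any nanostraw electroporation (NEE). A549 is an established human lung adenocarcinoma line. NEE draws RNA from living cells through hollow nanoscale tubes with short electric pulses, and none of the 4 libraries compared here had received it. They were the 2 spheroid lysates and the 2 monolayer lysates labelled as before NEE, out of 19 Smart-Seq2 libraries in the series. All 4 came from the same line with no drug or genetic change named, and the series' design text calls the replicates biological and the culture conditions matched. The sources used here do not give the medium, the spheroid method, or the age and size of the spheroids. Of 62700 genes listed, 13381 reached 1 CPM (a gene's counts scaled to the total of its library) in at least 2 of the 4 libraries, and these were tested. The other 12 lysate libraries, 6 of each culture taken right after, 2 h after and 24 h after NEE, entered the tests before NEE only through the shared estimate of spread.

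Cells packed into a spheroid touch neighbours on all sides, and oxygen, glucose and growth factors reach the core only by diffusion. Low oxygen stabilises the hypoxia-inducible factors (HIF), transcription factors that bind a short DNA core and switch on glucose uptake, glycolysis, pH control and mitophagy. Lysosomes are the acidic organelles that break down proteins, lipids and sugars, and many of their genes share a DNA element read by TFEB and its relatives. Entry into S phase depends on E2F factors, which drive the genes that load and fire replication origins. A monolayer spreads on stiff plastic, which favours actin stress fibres, caveolae and the mechanically controlled factors YAP, TAZ and SRF.

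The 4 libraries held 24571083 and 19032906 counts for the monolayers and 18043940 and 17769267 counts for the spheroids, in replicate order. A gene with 3 counts in a library stands at 0.122 to 0.169 CPM here. The reads carry no molecular identifiers, so floors and intervals cover counting error only. Levels below are CPM on TMM-scaled library sizes, which can be compared between libraries for 1 gene but not between genes. A summed 12-gene list of A549 epithelial markers (keratins, aldehyde dehydrogenases and aldo-keto reductases) stood at 16280 and 50990 CPM in the monolayers and 40040 and 61020 CPM in the spheroids. The range over the 12 later libraries was 37440 to 65110 CPM, so monolayer replicate 1 lay below all others. A 20-gene natural killer and T cell list summed to 611.3 CPM in that library, against 25.08, 18 and 20.92 CPM in the other 3 and 17.22 to 58.16 CPM later. Its members PRF1, which encodes the pore-forming perforin, and GNLY, which encodes granulysin, reached 190 and 101 CPM there. Among myeloid markers FCGR3A, an Fc receptor that natural killer cells also carry, stood at 42.8 CPM in monolayer replicate 1 and at 0.643 to 1.22 CPM in the other 3. The monocyte receptor CD14 was lowest in that library, at 0.759 and 15.4 CPM in the monolayers and 89.8 and 42.9 CPM in the spheroids. The 12-gene myeloid list summed to 63.21 and 18.94 CPM in the monolayers and 102.9 and 53.34 CPM in the spheroids, so its highest sum was in spheroid replicate 1, and its part in the results was not tested. In a bulk lysate, fewer cells of a type and less RNA per cell cannot be told apart. The red cell and platelet list summed to at most 4.03 CPM and the B cell list to at most 9.52 CPM in the 4 libraries, and 6 of the 8 B cell markers were at 0 in each. GZMA, a granzyme of natural killer and T cells, was the 1 marker of the leukocyte lists called lower in spheroids before NEE (adjusted p = 0.0491, 0.754 against monolayer replicate 2 alone), at 46.3 and 1.61 CPM in the monolayers and 0.874 and 0.76 CPM in the spheroids. The part of this RNA in other values was not tested beyond a fit that leaves out monolayer replicate 1. Each named gene is therefore also given against monolayer replicate 2 alone. In that fit the lone library is assumed to vary like the other groups.

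Spheroids had 193 genes higher and 193 genes lower than monolayers (edgeR quasi-likelihood test, Benjamini-Hochberg adjusted p under 0.05), each 1.44% of the genes tested. All 386 had no overlap between the 2 and the 2 libraries. Among all genes tested, 20.3% lay without overlap higher and 22.4% lower in spheroids. A fit with a block for the replicate number called 416 higher and 345 lower, all 386 among them. Log2 fold changes are given as spheroids over monolayers, ± the standard error of the fit over 2 and 2 libraries. The median was 1.48 for the genes called higher and -1.57 for those called lower, against -0.03 over all genes tested. Of the genes called higher 189 were protein-coding, and of those called lower 186. The 1.44% called in each direction and the 48.35% of all genes with a positive log2 fold change stand beside each list count below.

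Against monolayer replicate 2 alone, 28 genes were called higher (0.209% of those tested) and 17 lower (0.127%). Since the called genes did not overlap, their sign in that fit was fixed and is not a result. Of the 193 called higher against both libraries 22 were called and 142 differed by at least 2-fold, and of the 193 called lower 17 were called and 145 differed by at least 2-fold. Leaving out spheroid replicate 1 left 27 higher and 12 lower, and leaving out spheroid replicate 2 left 50 and 18. Leaving out monolayer replicate 2 gave 676 and 630. Each of these fits holds 1 library in a group, and the 4 libraries fitted without the other groups gave 0 calls with edgeR (2 residual degrees of freedom, 1406 genes at an unadjusted p under 0.05).

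In the 12 later libraries, spheroids had 1153 genes higher (8.62% of those tested) and 1222 lower (9.13%). Of the genes called before NEE, 181 of 193 were called higher and 163 of 193 lower there, and none was called the other way. Both tests used the same estimate of spread, which includes these 12 libraries, so the calls are not independent. All 193 genes called higher and 190 of the 193 called lower kept their sign, beside 76.56% of all genes tested. The 6 spheroid and 6 monolayer libraries did not overlap for 164 of the genes called higher and 138 of those called lower. The share over all genes tested is not given here, so these counts are a description only. The difference before NEE minus that in the later libraries passed the test for 0 genes with edgeR (396 at an unadjusted p under 0.05), and for 19 with DESeq2.

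**Figure D1:**
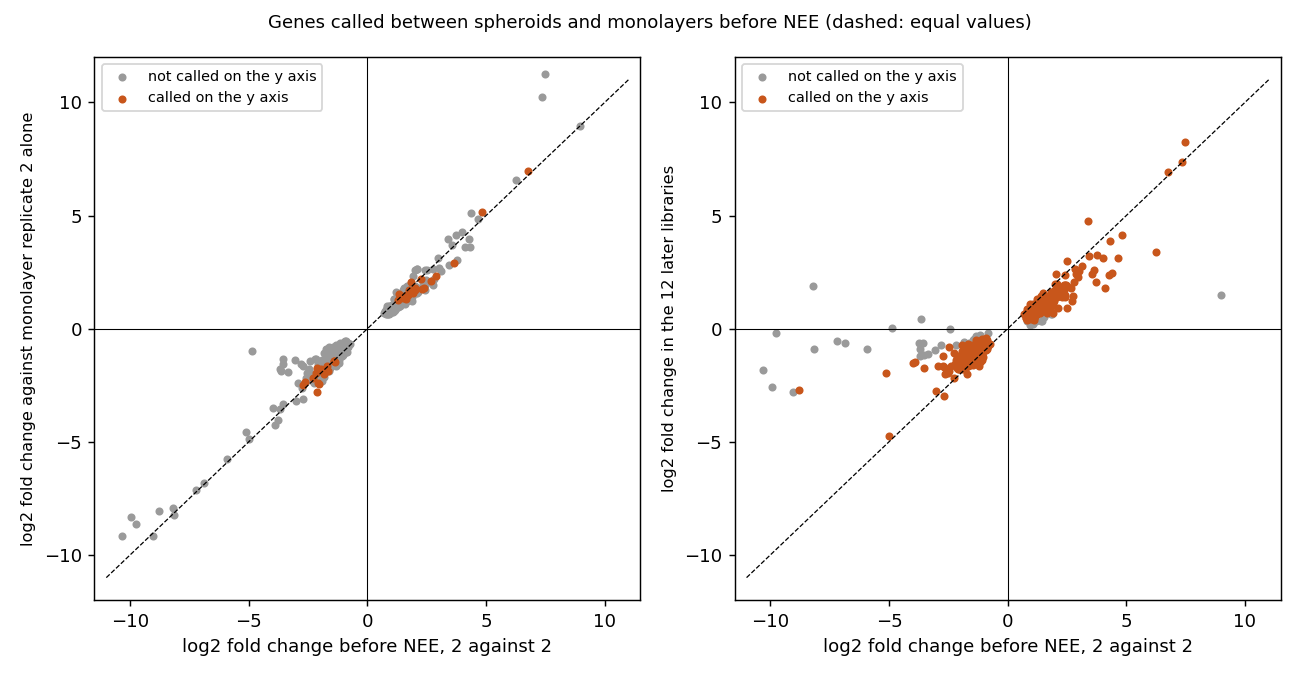
The 386 genes called between spheroids and monolayers before NEE, each point a gene, with the log2 fold change of the 2 against 2 libraries on the horizontal axis. The vertical axis gives the log2 fold change against monolayer replicate 2 alone (left) or in the 12 later libraries (right), orange points are also called there, and values on both axes for genes near 0 counts depend on the fit's prior. On the right 383 of the 386 genes keep their side, while on the left the side follows from the lack of overlap.

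Genes of the HIF response and of glycolysis were among those higher in spheroids. Of 29 HIF target genes tested, 6 were called higher and 0 lower (10 and 0 with the replicate block), and the list's median log2 fold change was 1.55, against 1.81 relative to monolayer replicate 2 alone. Of 23 genes of glycolysis and glucose uptake, 5 were called higher and 0 lower (9 and 0 with the block). The glycolysis list's median was 1.11, and 0.90 against replicate 2 alone. Beside both lists, 1.44% of all genes tested were called in each direction. In the later libraries 17 HIF targets and 12 glycolysis genes were called higher, beside 8.62% of all genes tested. There 1 glycolysis gene was called lower, beside 9.13% of all genes, and the list medians were 1.12 and 0.75.

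The promoters of 3 of these genes are shown because they hold the core that HIF binds, ACGTG, which is in capitals on either strand (CACGT on the opposite one). They are RefSeq windows on GRCh38.p14, 250 bases before to 50 after the annotated start, written 5′ to 3′ on the gene's strand.
ALDOC (chr17:28576846-28577145, minus strand): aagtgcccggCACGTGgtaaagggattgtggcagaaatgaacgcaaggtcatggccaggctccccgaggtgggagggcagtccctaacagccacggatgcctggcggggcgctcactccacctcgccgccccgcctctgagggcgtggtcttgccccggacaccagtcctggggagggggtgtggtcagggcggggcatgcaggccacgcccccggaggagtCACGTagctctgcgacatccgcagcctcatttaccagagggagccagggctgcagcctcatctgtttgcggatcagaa
PGK1 (chrX:78103998-78104297, plus strand): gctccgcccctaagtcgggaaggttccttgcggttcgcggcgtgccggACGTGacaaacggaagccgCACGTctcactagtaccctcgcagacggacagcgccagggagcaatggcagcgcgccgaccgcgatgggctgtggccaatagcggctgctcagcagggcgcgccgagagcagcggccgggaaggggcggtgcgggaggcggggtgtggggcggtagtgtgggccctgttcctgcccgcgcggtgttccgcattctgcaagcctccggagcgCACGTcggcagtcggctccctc
CA9 (chr9:35673678-35673977, plus strand): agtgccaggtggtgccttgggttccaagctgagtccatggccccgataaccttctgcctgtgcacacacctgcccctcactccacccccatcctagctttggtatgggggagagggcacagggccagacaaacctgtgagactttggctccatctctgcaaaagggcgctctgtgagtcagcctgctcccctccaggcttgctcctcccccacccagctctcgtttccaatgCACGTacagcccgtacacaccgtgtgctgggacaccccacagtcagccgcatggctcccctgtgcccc
In ALDOC the core lies 240, 239 and 28 bases before the start, the first pair overlapping as one CACGTG. PGK1 holds it 202 and 183 bases before and 28 bases after the start, and CA9 18 bases before it. The core was found on either strand in 20 of 32 windows of the HIF list (62.5%), and in 18 of 48 windows of the glycolysis list (37.5%). It occurs in 25.5% of the 15031 windows of the genes tested and 21.4% of all 35116 windows. The same share, 25.5%, was found for the 259 windows of genes called higher. Of the HIF list 25 of 29 genes matched a window, and of the glycolysis list 22 of 23. A match is a description of the letters in the window and also counts the E-box CACGTG.

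CA9 encodes carbonic anhydrase IX, a cell-surface enzyme that handles acid outside hypoxic cells (chr9:35673856-35681159 on GRCh38). It was nearly silent in the monolayers, at 2.28 and 1.76 CPM, and reached 313 and 133 CPM in the spheroids. The fitted difference was 109.6-fold, a log2 fold change of 6.78 ± 0.76 (adjusted p = 0.00238), and 6.98 (adjusted p = 0.0403) against replicate 2 alone. The 6 later spheroid libraries ranged from 104 to 325 CPM and the 6 later monolayer libraries from 0.829 to 10.2 CPM.

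BNIP3 and BNIP3L, which mark mitochondria for removal, were both higher in spheroids. BNIP3 had 70.3 and 119.6 CPM in the monolayers and 575 and 270.4 CPM in the spheroids, a log2 fold change of 2.16 ± 0.39 (adjusted p = 0.0192) and 1.82 (adjusted p = 0.121) against replicate 2 alone. BNIP3L had 167 and 102 CPM in the monolayers and 703 and 325 CPM in the spheroids, with a log2 fold change of 1.94 ± 0.36 (adjusted p = 0.0218) and of 2.33 against replicate 2 alone (adjusted p = 0.054). HILPDA, a lipid droplet protein that restrains fat breakdown, went from 17.8 and 61.5 CPM to 367 and 156 CPM, with a log2 fold change of 2.72 ± 0.55 (adjusted p = 0.0278) and of 2.09 against replicate 2 alone (adjusted p = 0.121). PLOD1, which hydroxylates lysines of collagen, had 218 and 224 CPM in the monolayers and 497 and 360.1 CPM in the spheroids, with a log2 fold change of 0.96 ± 0.22 (adjusted p = 0.0405) and of 0.94 against replicate 2 alone (adjusted p = 0.152). INSIG2, an endoplasmic reticulum brake on sterol synthesis, had 28.1 and 29.6 CPM in the monolayers and 154 and 64.3 CPM in the spheroids, with a log2 fold change of 1.92 ± 0.45 (adjusted p = 0.0464) and of 1.88 against replicate 2 alone (adjusted p = 0.203). For all 6 called HIF targets spheroid replicate 1 held the higher level of the 2 spheroid libraries. The monolayer libraries lay below both, as for every gene called higher.

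ALDOC, the aldolase isoform C of glycolysis (chr17:28573115-28577264), showed the smallest p of all genes tested. Its level was 11.7 and 7.81 CPM in the monolayers and 344 and 215 CPM in the spheroids, 28.6-fold on the fitted scale. The log2 fold change was 4.84 ± 0.36 (adjusted p = 7.1e-05), 5.16 ± 0.46 (adjusted p = 0.00146) against replicate 2 alone and 4.14 (adjusted p = 3.66e-07) in the later libraries. PGK1, phosphoglycerate kinase, which yields the first ATP of glycolysis (chrX:77910739-78129296), had 1401 and 1476 CPM in the monolayers and 8445 and 5291 CPM in the spheroids. That was a log2 fold change of 2.26 ± 0.26 (adjusted p = 0.00238), 2.22 ± 0.34 (adjusted p = 0.0351) against replicate 2 alone and 1.75 (adjusted p = 3.97e-05) later. Neither gene overlapped between the cultures before NEE or in the later libraries.

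GPI, which turns glucose-6-phosphate into fructose-6-phosphate, had 754 and 775 CPM in the monolayers and 2809.6 and 2311 CPM in the spheroids, with a log2 fold change of 1.74 ± 0.24 (adjusted p = 0.00483) and of 1.72 against replicate 2 alone (adjusted p = 0.0403). PFKL, a phosphofructokinase subunit at the committed step, had 144 and 114 CPM in the monolayers and 339 and 313 CPM in the spheroids, with a log2 fold change of 1.34 ± 0.21 (adjusted p = 0.00882) and of 1.51 against replicate 2 alone (adjusted p = 0.0351). PKM, pyruvate kinase, had 6379 and 5912 CPM in the monolayers and 11597 and 10431 CPM in the spheroids, with a log2 fold change of 0.84 ± 0.18 (adjusted p = 0.0324) and of 0.90 against replicate 2 alone (adjusted p = 0.0925). The glucose transporter SLC2A1 was not called, at 416 and 428 CPM in the monolayers and 789.9 and 559.8 CPM in the spheroids (log2 fold change 0.68 ± 0.27, adjusted p = 0.187, and 0.66 against replicate 2 alone, adjusted p = 0.432). LDHA, which makes lactate, was not called in the fit without the block at 3625 and 4628 CPM in the monolayers and 12055 and 7453 CPM in the spheroids (log2 fold change 1.24 ± 0.33, adjusted p = 0.0647, and 1.08 against replicate 2 alone, adjusted p = 0.297, and adjusted p = 0.0175 with the replicate block). The classical hypoxia target VEGFA encodes the growth factor that attracts vessels. It was low in all 4 libraries, at 0.456 and 0.403 CPM in the monolayers and 1.81 and 1.05 CPM in the spheroids. VEGFA was not called (log2 fold change 1.72 ± 1.09, adjusted p = 0.416, and 1.81 against replicate 2 alone). At such a level the lack of a call does not show that it was unchanged.

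The medians of the HIF and the glycolysis list were larger within replicate number 1 than within number 2. Within number 1 the median log2 ratio of spheroid to monolayer was 1.40 for the HIF list and 1.41 for glycolysis, and within number 2 it was 0.68 and 0.60. Of the 29 HIF targets 25 were higher in spheroid replicate 1 than in spheroid replicate 2, with a median log2 ratio of 1.09 between them, beside 48.8% of all genes tested and a median of -0.01. No test was made of this, since each value is 1 library.

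**Figure D2:**
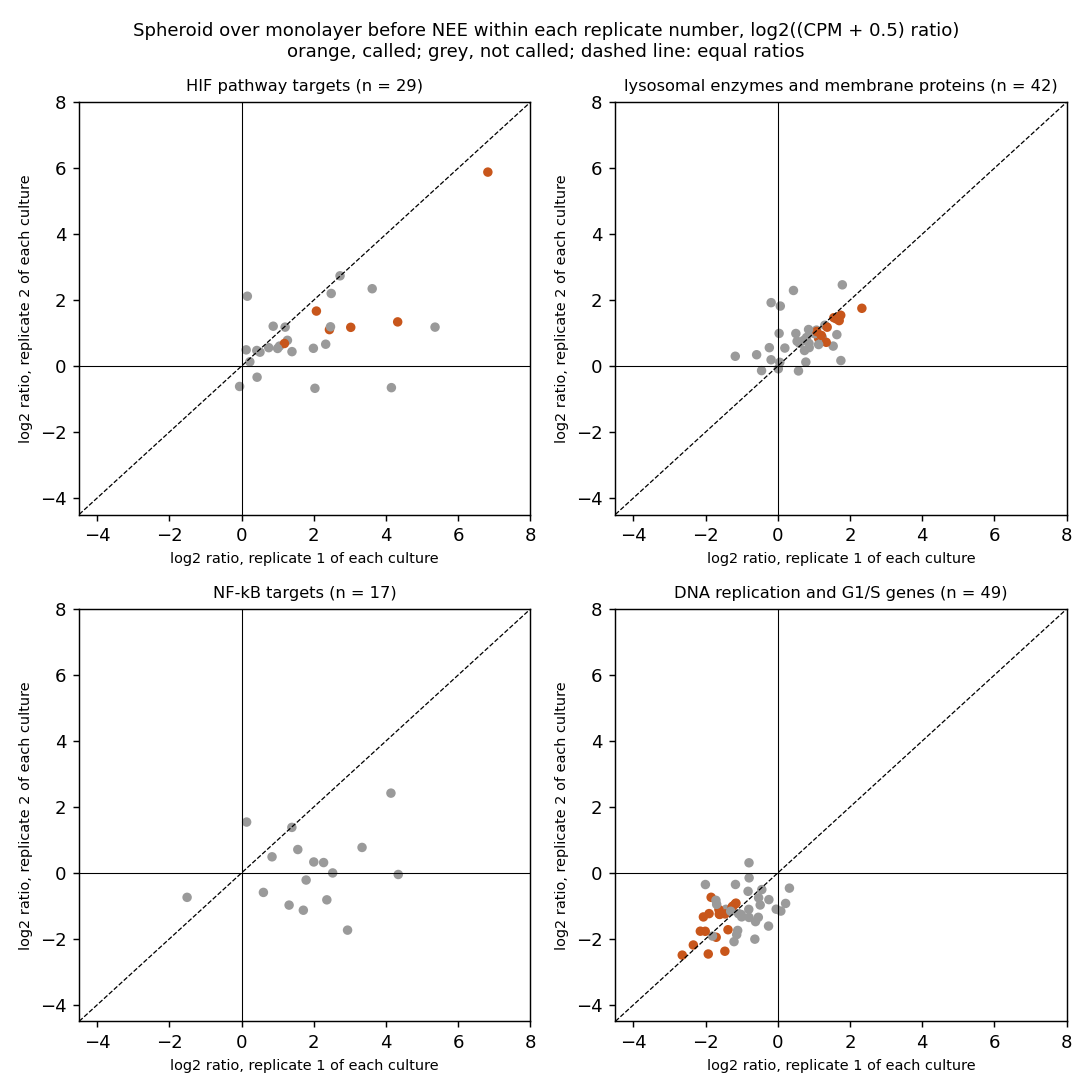
Log2 ratio of spheroid to monolayer CPM before NEE within replicate 1 of each culture (horizontal axis) and within replicate 2 (vertical axis), with 0.5 CPM added to each level, for the members of 4 lists. Orange points are genes called in the 2 against 2 comparison, grey points are not called, and the dashed line marks equal ratios. HIF targets and NF-kB targets lie mostly below the line, with medians of 1.40 and 0.68, and of 1.79 and 0.00, while lysosomal and DNA replication genes lie on both sides of it.

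Lysosomal genes were also among those higher in spheroids, with similar list medians in both replicate numbers. Of 42 genes for lysosomal enzymes and membrane proteins 10 were called higher and 0 lower (16 and 0 with the replicate block). Among all genes tested, 1.44% were called in each direction. A positive log2 fold change was seen for 37 of the 42, beside 48.35% of all genes tested. The median was 0.93, with 0.86 against replicate 2 alone, 0.86 within number 1 and 0.85 within number 2. In the later libraries 27 of the 42 were called higher and 0 lower, beside 8.62% and 9.13% of all genes tested. The list's later median was 0.74.

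The promoters of CTSD and CTSA are shown for the E-box CACGTG, the middle of the element bound by TFEB, in capitals, in the same windows and build.
CTSD (chr11:1763878-1764177, minus strand): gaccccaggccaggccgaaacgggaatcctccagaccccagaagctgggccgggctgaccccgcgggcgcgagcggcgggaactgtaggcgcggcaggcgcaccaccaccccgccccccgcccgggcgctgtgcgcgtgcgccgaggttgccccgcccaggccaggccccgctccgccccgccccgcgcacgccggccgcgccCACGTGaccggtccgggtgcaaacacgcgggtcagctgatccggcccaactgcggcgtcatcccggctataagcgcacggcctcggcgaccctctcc
CTSA (chr20:45891085-45891384, plus strand): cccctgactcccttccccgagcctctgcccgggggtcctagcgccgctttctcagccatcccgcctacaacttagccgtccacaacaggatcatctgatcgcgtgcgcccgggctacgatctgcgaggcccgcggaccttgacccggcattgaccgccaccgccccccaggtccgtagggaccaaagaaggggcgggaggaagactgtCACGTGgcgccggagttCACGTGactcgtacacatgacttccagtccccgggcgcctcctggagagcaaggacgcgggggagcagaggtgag
The E-box lies 47 bases before the start of CTSD, and 42 and 25 bases before that of CTSA. It reads the same on both strands and contains the HIF core. Of 45 windows of the lysosomal list 9 held it (20%), and 31 of the 42 genes matched a window. The share was 9.25% for the genes tested and 7.26% for all windows. The window of GRN held none.

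CTSD, the aspartic protease cathepsin D (chr11:1752752-1764573), had 135 and 216 CPM in the monolayers and 679 and 729 CPM in the spheroids. The difference was 4.01-fold, a log2 fold change of 2.004 ± 0.26 (adjusted p = 0.00365), 1.70 ± 0.26 (adjusted p = 0.0351) against replicate 2 alone and 1.39 (adjusted p = 0.000102) later. GRN, the progranulin precursor of lysosomal granulins, had the smallest p of the list, with 592 and 686 CPM in the monolayers and 1828 and 1849 CPM in the spheroids. Its log2 fold change was 1.52 ± 0.17 (adjusted p = 0.00238) and 1.42 (adjusted p = 0.0207) against replicate 2 alone. For both genes the 2 spheroid libraries lay within a narrow range, and all monolayer libraries, later ones included, lay lower.

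CTSA, which encodes a carboxypeptidase that also protects other lysosomal enzymes, had 178 and 206 CPM in the monolayers and 579 and 536 CPM in the spheroids, with a log2 fold change of 1.54 ± 0.19 (adjusted p = 0.00365) and of 1.44 against replicate 2 alone (adjusted p = 0.0351). GAA, the acid glucosidase that degrades glycogen, had 212 and 259 CPM in the monolayers and 624 and 716 CPM in the spheroids, with a log2 fold change of 1.51 ± 0.19 (adjusted p = 0.00376) and of 1.37 against replicate 2 alone (adjusted p = 0.0351). HEXA, a subunit of the hexosaminidase that cleaves gangliosides, had 80.2 and 80.1 CPM in the monolayers and 208 and 182 CPM in the spheroids, with a log2 fold change of 1.28 ± 0.19 (adjusted p = 0.00729) and of 1.28 against replicate 2 alone (adjusted p = 0.0403). These 3 and CTSD and GRN were the 5 lysosomal genes also called against replicate 2 alone. The other called members were PSAP (1.06, 1.07 against replicate 2 alone), the precursor of the saposins, and CTSL (1.64, 1.59), a cysteine protease. They also included GLB1 (0.98, 0.83), a galactosidase, ATP6AP1 (1.01, 0.76), an accessory protein of the proton pump, and ASAH1 (1.07, 1.06), the acid ceramidase. In the list of autophagy and TFEB-linked genes 2 of 15 were called higher and 1 lower (4 and 1 with the replicate block). WIPI1, which helps to build autophagosomes, had 11.4 and 16.8 CPM in the monolayers and 37.6 and 74.3 CPM in the spheroids (log2 fold change 1.99 ± 0.38, adjusted p = 0.0225, and 1.73 against replicate 2 alone, adjusted p = 0.139), and GABARAPL1, which coats them, had 27.9 and 25.2 CPM in the monolayers and 81.9 and 58.4 CPM in the spheroids (log2 fold change 1.40 ± 0.32, adjusted p = 0.043, and 1.47 against replicate 2 alone, adjusted p = 0.157). ATG16L1, part of the lipidation complex, was lower, with 145 and 79.2 CPM in the monolayers and 46.2 and 42.8 CPM in the spheroids (log2 fold change -1.33 ± 0.28, adjusted p = 0.0308, and -0.83 against replicate 2 alone, adjusted p = 0.176).

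**Figure D3:**
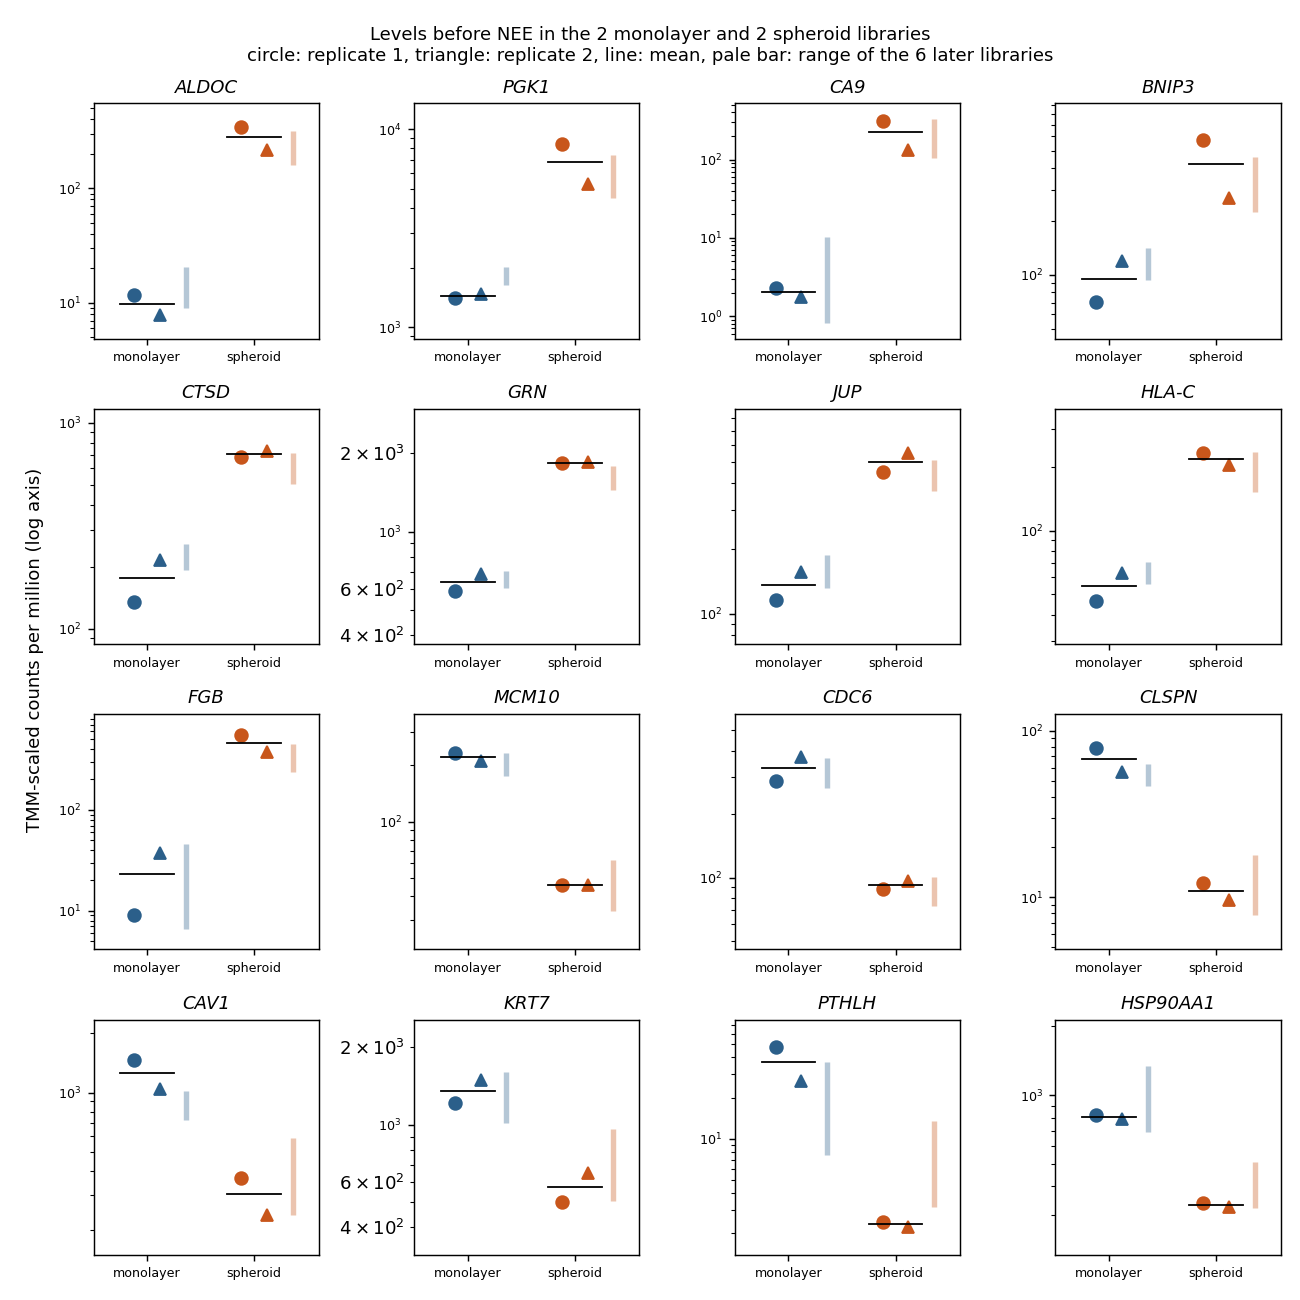
Level of 16 genes in each library before NEE, in TMM-scaled CPM on a log axis, with monolayers in blue and spheroids in orange. Circles are replicate 1, triangles replicate 2, black lines the mean of the 2, and pale bars the range of the 6 later libraries of the same culture. All 16 genes were picked from the called ones, none of which overlapped, so the separation of the cultures in each panel is not a result. For ALDOC the levels were 344 and 215 CPM in the spheroids and 11.7 and 7.81 CPM in the monolayers.

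Few cell junction genes were called. JUP, plakoglobin, a linker shared by desmosomes and adherens junctions (chr17:41754604-41786931), was higher in spheroids, with 116 and 156 CPM in the monolayers and 449.5 and 551 CPM in the spheroids. The difference was 3.68-fold, a log2 fold change of 1.88 ± 0.25 (adjusted p = 0.00392), 1.68 ± 0.29 (adjusted p = 0.0389) against replicate 2 alone and 1.43 (adjusted p = 8.51e-05) later. PERP, a tetraspan protein of desmosomes, had 351 and 395 CPM in the monolayers and 722 and 603 CPM in the spheroids (log2 fold change 0.83 ± 0.20, adjusted p = 0.0471, and 0.75 against replicate 2 alone, adjusted p = 0.191). These were the 2 called among 17 desmosome and adherens junction genes, none of which was called lower. The list's median was -0.15, and 0.15 against replicate 2 alone. CDH1, E-cadherin, had 15.5 and 65.7 CPM in the monolayers and 234 and 96.5 CPM in the spheroids and was not called (log2 fold change 2.03 ± 0.62, adjusted p = 0.0931, and 1.33 against replicate 2 alone, adjusted p = 0.363). DSP, the desmosomal plakin, had 102 and 88.5 CPM in the monolayers and 127 and 92.3 CPM in the spheroids (log2 fold change 0.20 ± 0.35, adjusted p = 0.803, and 0.31 against replicate 2 alone, adjusted p = 0.824).

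Of 14 tight and gap junction genes 0 were called (3 higher with the replicate block), with a median of 0.49 and 0.73 against replicate 2 alone. The claudin CLDN2 had 93.3 and 259 CPM in the monolayers and 463 and 1288 CPM in the spheroids (log2 fold change 2.31 ± 0.92, adjusted p = 0.189, and 1.76 against replicate 2 alone, adjusted p = 0.587, and adjusted p = 0.000443 with the replicate block). Replicate 2 was the higher of each pair. Among 14 keratins and epithelial markers 0 were called higher and 2 lower (2 and 2 with the block). KRT7, a keratin of simple epithelia, had 1218 and 1488 CPM in the monolayers and 500.1 and 651 CPM in the spheroids (log2 fold change -1.23 ± 0.30, adjusted p = 0.0483, and -1.37 against replicate 2 alone, adjusted p = 0.117). KRT80, a keratin found at junctions, had 95.4 and 119 CPM in the monolayers and 30.4 and 15.1 CPM in the spheroids (log2 fold change -2.23 ± 0.50, adjusted p = 0.0394, and -2.38 against replicate 2 alone, adjusted p = 0.107). The list's median was 1.04, but 0.25 against replicate 2 alone, and the low epithelial sum of monolayer replicate 1 stands beside it. Of 15 mesenchymal genes 0 were called (1 higher and 2 lower with the block), with a median of -0.50 and -0.06 against replicate 2 alone. Fibronectin, FN1, had 328 and 695 CPM in the monolayers and 2754 and 1901 CPM in the spheroids (log2 fold change 2.19 ± 0.64, adjusted p = 0.0855, and 1.74 against replicate 2 alone, adjusted p = 0.404, and adjusted p = 0.0481 with the replicate block). Vimentin, VIM, had 364 and 212 CPM in the monolayers and 138 and 102 CPM in the spheroids (log2 fold change -1.26 ± 0.34, adjusted p = 0.0646, and -0.82 against replicate 2 alone, adjusted p = 0.346, and adjusted p = 0.0126 with the block).

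**Figure D4:**
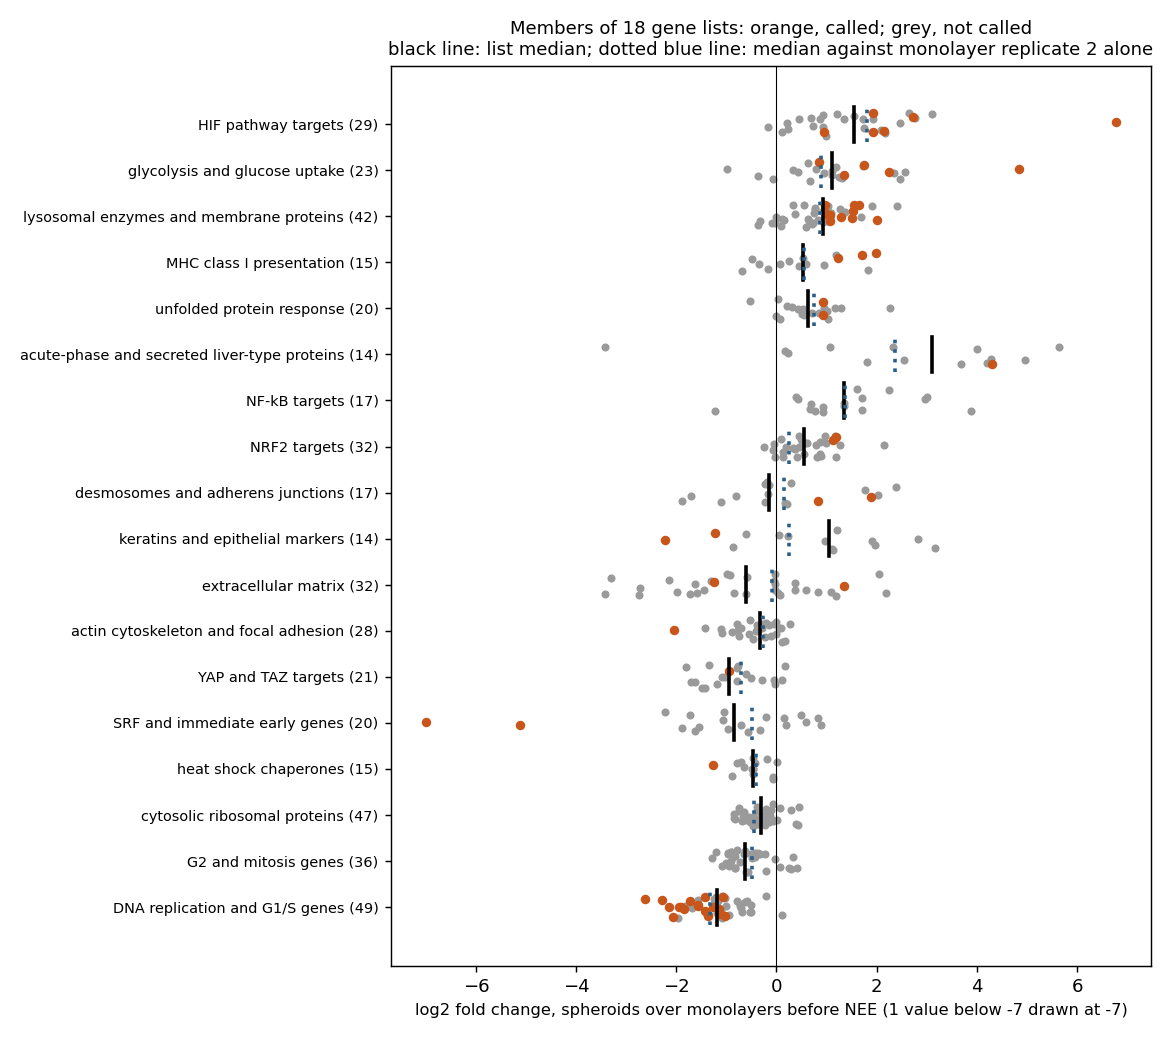
Log2 fold change of spheroids over monolayers before NEE for each tested member of 18 gene lists, with the number tested in brackets. Orange points are called, grey points are not, the black line is the list's median and the dotted blue line its median against monolayer replicate 2 alone. The HIF, glycolysis and lysosomal medians lie at 1.55, 1.11 and 0.93, and that of DNA replication at -1.19.

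Genes of DNA replication were the most frequent listed genes among those lower in spheroids. Of 49 genes for origin licensing, firing and nucleotide supply 19 were called lower and 0 higher, beside 1.44% of all genes in each direction. A negative log2 fold change was seen for 48 and a positive one for 1, beside 48.35% positive among all genes tested. The median was -1.19, with -1.33 against replicate 2 alone, -1.18 within number 1 and -1.23 within number 2. For 41 of the 49 both spheroid libraries lay below both monolayer libraries, beside 22.4% of all genes tested. In the later libraries 46 of the 49 were called lower, beside 9.13% of all genes tested, with a median of -1.47.

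The promoter of CDC6 is shown for an E2F-type site, TTTGGCGC, in capitals, 7 bases after the start.
CDC6 (chr17:40287629-40287928, plus strand): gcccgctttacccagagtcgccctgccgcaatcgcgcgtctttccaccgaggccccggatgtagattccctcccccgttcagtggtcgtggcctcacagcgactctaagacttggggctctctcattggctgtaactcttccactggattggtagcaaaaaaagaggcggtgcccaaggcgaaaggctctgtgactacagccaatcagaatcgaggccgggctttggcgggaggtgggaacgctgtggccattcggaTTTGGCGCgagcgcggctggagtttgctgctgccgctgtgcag
The words TTTCCCGC, TTTGGCGC and TTTCGCGC were searched on both strands. Of 52 windows of the replication list 23 held one (44.2%), and 40 of the 49 genes matched a window. The share was 4.03% for the genes tested, 2.74% for all windows, 14.3% for the 196 windows of genes called lower and 2.7% for those called higher. The window of MCM10 held none of these words.

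MCM10, which helps the replicative helicase to start (chr10:13161554-13211104), had 234 and 209.9 CPM in the monolayers and 45.8 and 45.8 CPM in the spheroids. It was 4.84-fold lower, a log2 fold change of -2.28 ± 0.24 (adjusted p = 0.00206), -2.20 ± 0.26 (adjusted p = 0.00674) against replicate 2 alone and -2.17 (adjusted p = 5.09e-06) later. CDC6, a loader of that helicase, had 288 and 372 CPM in the monolayers and 87.9 and 96 CPM in the spheroids, with a log2 fold change of -1.84 ± 0.22 (adjusted p = 0.0024) and of -2.02 against replicate 2 alone (adjusted p = 0.00452). The 4 libraries of each gene split by culture, as they did for every called gene.

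CLSPN, claspin, which relays stalled-fork signals, had 78.4 and 56.5 CPM in the monolayers and 12.1 and 9.64 CPM in the spheroids, with a log2 fold change of -2.63 ± 0.35 (adjusted p = 0.00413) and of -2.38 against replicate 2 alone (adjusted p = 0.0351). EXO1, an exonuclease of repair and replication, had 172 and 132 CPM in the monolayers and 44.9 and 23.7 CPM in the spheroids, with a log2 fold change of -2.15 ± 0.29 (adjusted p = 0.00483) and of -1.95 against replicate 2 alone (adjusted p = 0.0351). The subunits of the MCM2-7 helicase that were called were MCM3 (-1.42, -1.42 against replicate 2 alone), MCM4 (-1.37, -1.23), MCM5 (-1.06, -0.97), MCM6 (-1.43, -1.43) and MCM7 (-1.15, -1.05). Clamp loader subunits RFC3 (-1.36, -1.23) and RFC5 (-1.13, -1.11), the origin proteins GINS1 (-1.73, -1.43) and ORC1 (-1.57, -1.46) and the polymerase POLE (-1.27, -1.08) were also called. The rest were the flap nuclease FEN1 (-1.02, -1.15), the ribonucleotide reductase subunit RRM2 (-1.56, -1.73), the methylation factor UHRF1 (-1.95, -1.92), the repair gene BRCA1 (-1.90, -1.82) and the transcription factor E2F8 (-2.07, -2.41). Called against replicate 2 alone were MCM10, CDC6, CLSPN, EXO1, MCM3, MCM6, E2F8 and BRCA1, the last at an adjusted p of 0.04997.

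Genes of G2 and mitosis had a median nearer to 0. None of 36 was called (3 lower with the replicate block), beside 1.44% of all genes in each direction. A negative log2 fold change was seen for 31 and a positive one for 5, beside 48.35% positive among all genes tested. The median was -0.62, with -0.49 against replicate 2 alone. In the later libraries 30 of the 36 were called lower, beside 9.13% of all genes tested, with a median of -1.05. ANLN, anillin of the cleavage furrow, had 412 and 237 CPM in the monolayers and 154 and 128 CPM in the spheroids (log2 fold change -1.20 ± 0.31, adjusted p = 0.0571, and -0.75 against replicate 2 alone, adjusted p = 0.331, and adjusted p = 0.0449 with the block). The kinesin cofactor TPX2 had 547 and 361 CPM in the monolayers and 194 and 257 CPM in the spheroids (log2 fold change -1.01 ± 0.27, adjusted p = 0.0647, and -0.68 against replicate 2 alone, adjusted p = 0.332, and adjusted p = 0.0434 with the block). Cell cycle inhibitors and quiescence genes had a median of 0.17, and 0 of 18 were called (1 higher with the block). Without spheroid replicate 2 that median was -0.07. CCND1, cyclin D1 of early G1, is in none of the lists and was chosen after its values were seen. It had 269 and 316 CPM in the monolayers and 43.1 and 124 CPM in the spheroids (log2 fold change -1.81 ± 0.43, adjusted p = 0.0471, and -1.92 against replicate 2 alone, adjusted p = 0.13). Of 11 histone genes of the replication-dependent kind 2 were called higher, H2AC6 (1.58, 1.38 against replicate 2 alone) and H2BC21 (2.01, 2.58). Near-identical copies can share reads, so these histone values are uncertain.

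Genes of adhesion, stress fibres and mechanical signalling had mostly negative log2 fold changes and few calls. Of 28 actin and focal adhesion genes 1 was called lower (2 with the replicate block), and the median was -0.34. That gene was CAV1, the coat protein of caveolae, with 1467 and 1042 CPM in the monolayers and 369 and 239 CPM in the spheroids (log2 fold change -2.05 ± 0.32, adjusted p = 0.00983, and -1.78 against replicate 2 alone, adjusted p = 0.0576, and -1.35 later, adjusted p = 0.000481). Of 21 YAP and TAZ targets 1 was called lower (2 with the block). It was ASAP1, which acts on focal adhesions (-0.95, -0.76 against replicate 2 alone). Of the 21, 19 had a negative log2 fold change and 2 a positive one, beside 48.35% positive among all genes tested. The median was -0.95, and -0.72 against replicate 2 alone, but -0.29 in the later libraries. CCN1, a matricellular YAP target, had 96.5 and 83.8 CPM in the monolayers and 26.9 and 24.4 CPM in the spheroids and was not called (log2 fold change -1.81 ± 0.68, adjusted p = 0.166, and -1.71 against replicate 2 alone, adjusted p = 0.427).

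Of 32 extracellular matrix genes 1 was called higher and 1 lower (2 and 2 with the replicate block). LAMB2, a laminin chain of basement membranes, had 88.7 and 142 CPM in the monolayers and 286 and 298 CPM in the spheroids (log2 fold change 1.34 ± 0.26, adjusted p = 0.0246, and 1.04 against replicate 2 alone, adjusted p = 0.128). THBS1, thrombospondin, had 102 and 105 CPM in the monolayers and 30.9 and 56.1 CPM in the spheroids (log2 fold change -1.25 ± 0.28, adjusted p = 0.04, and -1.27 against replicate 2 alone, adjusted p = 0.121). The list's median was -0.60, and -0.09 against replicate 2 alone. Monolayer replicate 1 had the highest level of some matrix genes, COL1A1 being at 26.5 and 6.2 CPM in the monolayers and 1.98 and 2.92 CPM in the spheroids (log2 fold change -2.74 ± 0.70, adjusted p = 0.0564, and -1.34 against replicate 2 alone, adjusted p = 0.424). The fibroblast list summed to 42.67 CPM in that library, and to 23.37, 5.94 and 7.83 CPM in the other 3. Its part in the matrix values was not tested. Integrin subunits had a median of -0.15, and 0.59 against replicate 2 alone, with 0 of 13 called. Without spheroid replicate 2 it was 0.35.

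Some signalling genes were detected in the monolayers and nearly or fully at 0 in the spheroids before NEE. FOSB, an immediate early transcription factor, had 12.8 and 3.78 CPM in the monolayers and 0 counts in both spheroid libraries. It was at least 94.9-fold lower in the spheroids, taken against 3 counts over the group (adjusted p = 0.0218, 0.0895 against replicate 2 alone). The secreted protease MMP3, at 8.54 and 2.67 CPM, was also at 0 in both spheroid libraries, at least 64-fold lower (adjusted p = 0.0471, 0.179 against replicate 2 alone). IL31RA, a cytokine receptor chain, had 10.7 and 2.12 CPM and then 0, at least 73-fold lower (adjusted p = 0.0481, 0.191 against replicate 2 alone). In the later libraries MMP3 had 0.0489 to 1.32 CPM in monolayers and 0 to 1.06 CPM in spheroids, a log2 fold change of -0.17 (adjusted p = 0.915), and IL31RA had 0.769 to 2.87 CPM and 0 to 0.645 CPM, a log2 fold change of -2.56 (adjusted p = 0.059). Of the genes called lower, 7 had 0 counts in both spheroid libraries, and of those called higher 1 had 0 counts in both monolayer libraries.

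ATF3, a stress-induced factor, had 33.6 and 17.4 CPM in the monolayers and 0.816 and 0.643 CPM in the spheroids (log2 fold change -5.12 ± 1.22, adjusted p = 0.0477, and -4.56 against replicate 2 alone, adjusted p = 0.189). FOSB and ATF3 were the 2 called among 20 SRF and immediate early genes, whose median was -0.84, and -0.49 against replicate 2 alone. Both varied widely after NEE, FOSB from 0.609 to 40.9 CPM in the later monolayers and 0 to 49.9 CPM in the later spheroids. PTHLH, the parathyroid hormone-related peptide, had 47.6 and 26.6 CPM in the monolayers and 2.45 and 2.22 CPM in the spheroids (log2 fold change -3.99 ± 0.68, adjusted p = 0.0149, and -3.51 against replicate 2 alone, adjusted p = 0.0733). TNFRSF12A, the TWEAK receptor, had 198 and 374 CPM in the monolayers and 51.4 and 35.1 CPM in the spheroids (log2 fold change -2.73 ± 0.59, adjusted p = 0.0364, and -3.11 against replicate 2 alone, adjusted p = 0.0872). PPP1R14A, an inhibitor of myosin phosphatase, had 15.3 and 13.1 CPM in the monolayers and 2.45 and 1.81 CPM in the spheroids (log2 fold change -2.74 ± 0.65, adjusted p = 0.0471, and -2.62 against replicate 2 alone, adjusted p = 0.159). ZNF488, a zinc finger protein, had 56.4 and 72.2 CPM in the monolayers and 6.52 and 9.29 CPM in the spheroids (log2 fold change -3.02 ± 0.63, adjusted p = 0.0306, and -3.19 against replicate 2 alone, adjusted p = 0.0925).

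Large decreases were also seen for CDK5R1, REEP1, ATP10A and PRAG1, and those of ATP10A and PRAG1 were smaller in the later libraries. CDK5R1, an activator of the kinase CDK5, had 5.54 and 4.99 CPM in the monolayers and 0.0583 and 0 CPM in the spheroids, a ratio of 180.5 with a counting interval of 32.39 to 7128 (95%). Its adjusted p was 0.0336, and 0.103 against replicate 2 alone. In the later libraries it ranged from 1.33 to 3.19 CPM in monolayers and 0.127 to 2.85 CPM in spheroids. REEP1, which shapes the endoplasmic reticulum, had 7.9 and 7.25 CPM in the monolayers and 0.117 and 0 CPM in the spheroids, a ratio of 129.8 (35.94 to 1072, adjusted p = 0.0407, 0.115 against replicate 2 alone). ATP10A, a lipid flippase, had 13.8 and 11.4 CPM in the monolayers and 0.408 and 0 CPM in the spheroids (log2 fold change -5.91 ± 1.10, adjusted p = 0.0218, and -5.76 against replicate 2 alone, adjusted p = 0.0737), and PRAG1, a pseudokinase, had 4.06 and 6.3 CPM in the monolayers and 0.233 and 0.526 CPM in the spheroids (log2 fold change -3.75 ± 0.75, adjusted p = 0.0277, and -4.03 against replicate 2 alone, adjusted p = 0.0698). The later log2 fold changes were -0.88 (adjusted p = 0.246) for ATP10A and -0.62 (adjusted p = 0.278) for PRAG1. The difference before NEE minus later had unadjusted p-values of 0.00124 for CDK5R1, 0.00222 for REEP1, 0.000791 for ATP10A and 0.00214 for PRAG1. None of these differences passed after adjustment over all genes (edgeR).

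Among the largest increases were transporters and secreted or membrane proteins. SLC6A14, an amino acid transporter, had 0.0759 and 0 CPM in the monolayers and 10.8 and 5.14 CPM in the spheroids, a ratio of 183.8 with a 95% counting interval of 50.89 to 1518 (adjusted p = 0.0406, 0.147 against replicate 2 alone). SLC52A3, a riboflavin transporter, had 0.0759 and 0.0504 CPM in the monolayers and 4.25 and 6.49 CPM in the spheroids, a ratio of 82.7 with an interval of 28.29 to 400.9 (adjusted p = 0.0394, 0.192 against replicate 2 alone). Both rest on 2 or 3 counts in the monolayers. MIR210HG, the host transcript of a hypoxia-linked microRNA, had 1.14 and 0.957 CPM in the monolayers and 17.5 and 7.54 CPM in the spheroids (log2 fold change 3.57 ± 0.73, adjusted p = 0.0278, and 3.70 against replicate 2 alone, adjusted p = 0.141). TMEM45A, a membrane protein, had 2.2 and 1.56 CPM in the monolayers and 47.6 and 13.3 CPM in the spheroids (log2 fold change 4.01 ± 0.80, adjusted p = 0.0264, and 4.28 against replicate 2 alone, adjusted p = 0.133).

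LHX9, a LIM homeobox factor, had 0.38 and 0.604 CPM in the monolayers and 11.7 and 7.71 CPM in the spheroids (log2 fold change 4.29 ± 0.58, adjusted p = 0.00473, and 3.99 against replicate 2 alone, adjusted p = 0.0528). CYP4F11, a fatty acid hydroxylase, had 1.56 and 0.957 CPM in the monolayers and 13.1 and 20.7 CPM in the spheroids (log2 fold change 3.74 ± 0.76, adjusted p = 0.0278, and 4.13 against replicate 2 alone, adjusted p = 0.124). SPTSSB, a small subunit of the first enzyme of sphingolipid synthesis, had 2.01 and 1.01 CPM in the monolayers and 20.7 and 11.4 CPM in the spheroids (log2 fold change 3.40 ± 0.76, adjusted p = 0.0394, and 3.98 against replicate 2 alone, adjusted p = 0.121). The spheroid replicates differed widely for KIF12 and VASN. KIF12, a kinesin, had 1.06 and 0.806 CPM in the monolayers and 5.07 and 42.5 CPM in the spheroids (log2 fold change 4.65 ± 1.09, adjusted p = 0.0452, and 4.87 against replicate 2 alone, adjusted p = 0.224), and VASN, a membrane protein that binds TGF-beta, had 0.683 and 0.302 CPM in the monolayers and 1.98 and 19.1 CPM in the spheroids (log2 fold change 4.38 ± 1.07, adjusted p = 0.0483, and 5.09 against replicate 2 alone, adjusted p = 0.186). For both, spheroid replicate 2 held most of the signal.

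Acute-phase and other secreted liver-type genes had the highest median of the lists, 3.11 over 14 genes, with 2.36 against replicate 2 alone and 3.02 later. A single member was called higher before NEE and 0 lower (4 and 1 with the replicate block). In the later libraries 9 were called higher, beside 8.62% of all genes tested. FGB, the beta chain of fibrinogen, had 9 and 37.7 CPM in the monolayers and 554 and 372 CPM in the spheroids (log2 fold change 4.31 ± 0.94, adjusted p = 0.039, and 3.62 against replicate 2 alone, adjusted p = 0.219). Its partner FGA had 2.58 and 25.4 CPM in the monolayers and 252 and 107 CPM in the spheroids (log2 fold change 3.69 ± 0.94, adjusted p = 0.0575, and 2.82 against replicate 2 alone, adjusted p = 0.211, and adjusted p = 0.0488 with the block). CP, the copper protein ceruloplasmin, had 11.3 and 36.5 CPM in the monolayers and 488 and 277 CPM in the spheroids (log2 fold change 4.003 ± 1.07, adjusted p = 0.067, and 3.39 against replicate 2 alone, adjusted p = 0.344, and adjusted p = 0.0327 with the block). The monolayer replicates differed several-fold for each of these genes, replicate 1 being lower.

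NF-kB targets had a median of 1.34 over 17 genes with 0 called, and that median was 1.79 within number 1 and 0.00 within number 2. SOD2, the mitochondrial superoxide dismutase, had 278 and 91.7 CPM in the monolayers and 2811 and 157 CPM in the spheroids (log2 fold change 3.01 ± 1.42, adjusted p = 0.269, and 4.02 against replicate 2 alone, adjusted p = 0.461). ICAM1, an adhesion molecule for leukocytes, had 6.07 and 2.87 CPM in the monolayers and 115 and 17.5 CPM in the spheroids (log2 fold change 3.88 ± 1.41, adjusted p = 0.152, and 4.53 against replicate 2 alone, adjusted p = 0.402). Spheroid replicate 1 held the far higher level of both. Without it the list's median was -0.23, and SOD2 turned to a log2 fold change of -0.23 (adjusted p = 0.954). Interferon-stimulated genes had a median of 0.95, and 0.38 against replicate 2 alone, with 0 of 23 called.

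Antigen presentation genes included 3 called higher of 15, among them HLA-C and HLA-E, which display peptides to T cells and natural killer cells. HLA-C had 46.6 and 63.1 CPM in the monolayers and 233 and 205 CPM in the spheroids (log2 fold change 1.996 ± 0.25, adjusted p = 0.00365, and 1.79 against replicate 2 alone, adjusted p = 0.0365). HLA-E had 135 and 123 CPM in the monolayers and 311 and 297 CPM in the spheroids (log2 fold change 1.24 ± 0.23, adjusted p = 0.0225, and 1.31 against replicate 2 alone, adjusted p = 0.0841). The list's median was 0.53, and 0.54 against replicate 2 alone. HLA genes are alike in sequence, and reads could be split between them. Monolayer replicate 1, with the highest natural killer and T cell sum, lay below both spheroid libraries for both genes, as for every gene called higher.

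In the unfolded protein response 2 of 20 genes were called higher, and the median was 0.63. They were the protein disulfide isomerases PDIA6 (0.94, 0.81 against replicate 2 alone) and PDIA4 (0.92, 1.00). Of 32 NRF2 targets 2 were called higher (6 with the replicate block). PGD, an enzyme of the pentose phosphate pathway, was 1 of them and had 851 and 1240.5 CPM in the monolayers and 2191 and 2540.4 CPM in the spheroids (log2 fold change 1.18 ± 0.24, adjusted p = 0.03, and 0.93 against replicate 2 alone, adjusted p = 0.157). The list's median was 0.56, and 0.26 against replicate 2 alone. In the ATF4 list 1 of 22 was called lower (3 with the replicate block), PSAT1 of serine synthesis, with 744 and 416 CPM in the monolayers and 177 and 172 CPM in the spheroids (log2 fold change -1.73 ± 0.35, adjusted p = 0.0278, and -1.25 against replicate 2 alone, adjusted p = 0.155). AEN, a p53-induced nuclease, was the 1 of 24 p53 targets called, with 272 and 275 CPM in the monolayers and 80 and 105 CPM in the spheroids (log2 fold change -1.56 ± 0.30, adjusted p = 0.0225, and -1.57 against replicate 2 alone, adjusted p = 0.0799).

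HSP90AA1, an inducible cytosolic chaperone, was the 1 of 15 heat shock genes called lower (2 with the replicate block), with 817 and 791 CPM in the monolayers and 340.1 and 326 CPM in the spheroids (log2 fold change -1.27 ± 0.24, adjusted p = 0.0218, and -1.25 against replicate 2 alone, adjusted p = 0.0799). In lipid metabolism 2 of 24 genes were called higher (5 with the block). They were HILPDA and PDK4, a kinase that holds back pyruvate oxidation, with 142 and 171 CPM in the monolayers and 408 and 377 CPM in the spheroids (log2 fold change 1.33 ± 0.32, adjusted p = 0.0471, and 1.20 against replicate 2 alone, adjusted p = 0.219). None of 25 cholesterol genes, 35 respiratory chain subunits, 47 ribosomal proteins or 11 iron genes was called. With the replicate block 1 cholesterol gene, TM7SF2 of sterol synthesis (adjusted p = 0.041), and 3 iron genes were called higher, the iron exporter SLC40A1 (adjusted p = 0.00157), CP (adjusted p = 0.0327) and the ferritin chain FTH1 (adjusted p = 0.0459). The list medians were 0.29, 0.17, -0.31 and 0.18, and those against replicate 2 alone 0.50, 0.16, -0.45 and 0.48.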

How the data were processed

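RNA of A549 lysates was made into Smart-Seq2 libraries and sequenced as paired ends, per the labels' protocols and the series' design text. Each deposited file gives unnormalized counts for 1 library. The submitters' processing notes name FastQC, Trimmomatic, HISAT2 and featureCounts, and the build GRCh38. Tool versions, the annotation release and the strand setting are not given in those notes, so overlapping and antisense genes are uncertain. All 37 mitochondrially encoded genes were at 0. GENCODE release 29 placed 58207 of the 62700 genes on GRCh38.

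Counts were fitted as deposited with edgeR 4.0.16 in R 4.3.3 (TMM scaling, robust quasi-likelihood F test, Benjamini-Hochberg adjustment, adjusted p under 0.05). All 16 lysate libraries, in 8 groups of culture and time, shared 1 estimate of spread, with a biological coefficient of variation of 0.409 and 8 residual degrees of freedom. Genes needed 1 CPM in at least 2 of the 4 libraries before NEE. The labels' batch tag gives the replicate number, which was taken to pair the cultures. Over 8532 genes of at least 10 CPM, the difference of replicate 1 from 2 had a correlation of 0.387 between spheroids and monolayers. No pair among the 4 libraries before NEE held duplicates.

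The named genes were ALDOC, PGK1, CTSD, JUP and MCM10, up to 4 members of each of 31 lists by smallest p, and the 12 largest called differences of each sign. The latter needed 5 CPM in the higher group, no overlap and no place in a marker list, and were ranked by the smaller of the fold changes against both monolayer libraries and against replicate 2. Single further list members and other genes were picked after their values were seen. The comparison, its members, the lists and the tests were chosen with earlier results of these data known, so no count over a list is independent support. Promoter windows without a searched word are not printed, and a few genes that the rule names are not reported here. Figures were drawn with matplotlib 3.10.9, and alternatives included DESeq2 1.42.0. The calling before NEE was tested on simulated data, in which only genes with a mean of at least 5 CPM were changed. Otherwise each gene had 1 mean level in all libraries, so no library stood apart like monolayer replicate 1. Effects of time or replicate were not simulated. The calling recovered 5.08% of 59 genes changed 2-fold, 47.9% of 71 changed 4-fold and 81.4% of 70 changed 8-fold, with 4 false calls. These rates do not cover genes of lower level. A gene that was not called can therefore still differ between the cultures.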

Additional observations from a re-analysis of the deposited data

How the results depend on the processing

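With the replicate number as a block, 416 genes were called higher in spheroids before NEE and 345 lower, in place of 193 and 193, and the paired fit changed neither the counts of the later libraries nor those of the difference by over 1.5 times. Without a filter the counts were 726 and 598, with edgeR's own filter 125 and 106, with DESeq2 624 and 598, and with the 4 libraries alone 0 and 0. Leaving out 1 library in turn gave 27 to 676 higher and 12 to 630 lower, the lowest without spheroid replicate 1 and the highest without monolayer replicate 2. All 386 calls were also made by DESeq2 and with the block. RLE and upper-quartile scaling, a 5 CPM filter and all 19 libraries kept both counts within 1.5 times. In the later libraries 1763 genes were called higher without a filter, in place of 1153, and the ranges with 1 library left out were 1139 to 1368 higher and 1217 to 1419 lower. The difference before NEE minus later, with 0 and 0 calls, gave 10 higher and 85 lower without a filter and 1 and 18 with DESeq2, and leaving out 1 library gave 0 to 12 and 0 to 24. Of 138 named genes no called one changed sign and 1 uncalled one did, SOD2, at -0.23 without spheroid replicate 1, while 47 lost their call without monolayer replicate 1, 11 without monolayer replicate 2, 42 without spheroid replicate 1, 38 without spheroid replicate 2 and 62 with the 4 libraries alone. Since the called genes did not overlap, leaving out 1 library could not turn their sign, and their kept sign is not a result. Of 33 list medians, leaving out 1 library moved 13 or 14 beyond their spread between replicate numbers. Each such fit turned the sign of 2 or 3, and the 5 CPM filter moved 6 and turned 2. The signs that turned were those of desmosomes (-0.15, and 0.02 with the 5 CPM filter, 0.15 and 0.11 without monolayer replicates 1 and 2), integrins (-0.15, and 0.03 with that filter, 0.59 without monolayer replicate 1, 0.35 without spheroid replicate 2), cell cycle inhibitors (0.17, and -0.07 without spheroid replicate 2) and histones (0.48, and -0.04 without spheroid replicate 1). They were also those of p53 targets (-0.31, and 0.11 without monolayer replicate 2), NF-kB targets (1.34, and -0.23 without spheroid replicate 1) and iron genes (0.18, and -0.21 and -0.11 without monolayer replicate 2 and spheroid replicate 1). Leaving out 1 library gave HIF medians of 0.79 to 1.81, glycolysis 0.76 to 1.32, lysosomal 0.74 to 1.03 and DNA replication -1.36 to -1.08. The cause was not tested. A level of 3 counts, 0.122 to 0.169 CPM, limits what could be seen of genes near 0.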

Other observations

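Several further genes were picked after their values were seen, and their values are given as a description. Growth factor genes of the epidermal growth factor family were not all called. EREG, epiregulin, had 171 and 76.7 CPM in the monolayers and 27.6 and 17.7 CPM in the spheroids (log2 fold change -2.45 ± 0.46, adjusted p = 0.0218, and -1.76 against replicate 2 alone, adjusted p = 0.118). AREG, amphiregulin, had 10.4 and 21 CPM in the monolayers and 4.95 and 3.45 CPM in the spheroids (log2 fold change -1.90 ± 0.47, adjusted p = 0.0488, and -2.32 against replicate 2 alone, adjusted p = 0.0737), and NRG1, neuregulin, had 97.6 and 82.3 CPM in the monolayers and 29 and 30.6 CPM in the spheroids (log2 fold change -1.59 ± 0.38, adjusted p = 0.0462, and -1.47 against replicate 2 alone, adjusted p = 0.179). TGFA, of the same family, was not called, at 23 and 41.4 CPM in the monolayers and 41.7 and 55.7 CPM in the spheroids (log2 fold change 0.60 ± 0.53, adjusted p = 0.588, and 0.24 against replicate 2 alone, adjusted p = 0.925).

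Aldehyde dehydrogenases, which oxidise aldehydes, included 4 called higher and 0 lower of 15 tested (5 and 2 with the replicate block), beside 1.44% of all genes in each direction. ALDH2, the mitochondrial enzyme that clears acetaldehyde, had 122 and 162 CPM in the monolayers and 436 and 505 CPM in the spheroids (log2 fold change 1.73 ± 0.22, adjusted p = 0.00365, and 1.53 against replicate 2 alone, adjusted p = 0.0351, and 1.17 in the later libraries, adjusted p = 0.000118). ALDH6A1, of valine breakdown, had 25.5 and 31.1 CPM in the monolayers and 91.8 and 102 CPM in the spheroids (log2 fold change 1.77 ± 0.34, adjusted p = 0.0237, and 1.63 against replicate 2 alone, adjusted p = 0.134). The others called were ALDH3B1 (1.13, 0.91 against replicate 2 alone) and ALDH7A1 (0.84, 0.66). ALDH1A1, a marker of A549, had 6146 and 8461 CPM in the monolayers and 10984 and 13887 CPM in the spheroids and was not called (log2 fold change 0.77 ± 0.26, adjusted p = 0.12, and 0.56 against replicate 2 alone, adjusted p = 0.438, adjusted p = 0.0355 with the replicate block). On the lower side and not called without the block were ALDH1L2, a folate enzyme, at 19.9 and 2.92 CPM in the monolayers and 1.17 and 1.05 CPM in the spheroids (log2 fold change -3.36 ± 0.89, adjusted p = 0.0632, and -1.39 against replicate 2 alone, adjusted p = 0.495), and ALDH1A3, of retinoic acid synthesis (log2 fold change -1.87 ± 0.52, adjusted p = 0.0752).

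Subunits of enzymes that attach sugar chains or lipid anchors in the endoplasmic reticulum were not all called. DDOST and RPN2, of the oligosaccharyltransferase, were called higher (1.17 and 1.004, and 0.93 and 0.94 against replicate 2 alone). STT3A, its catalytic subunit, and RPN1 were not (0.15 and 0.27, and 0.43 and 0.32). PIGT, PIGS and GPAA1, of the complex that adds GPI anchors, were called higher (1.16, 0.89 and 1.11, and 1.01, 0.64 and 0.80 against replicate 2 alone). Of 21 numbered SNHG genes tested 3 were called lower and 0 higher, beside 1.44% of all genes in each direction. Of the 21, 19 had a negative log2 fold change and 2 a positive one, beside 48.35% positive among all genes tested. Their median was -0.84. The long RNAs SNHG15, SNHG3 and SNHG1, which carry small nucleolar RNAs in their introns, were called lower (-1.68, -1.66 and -1.34, and -1.82, -1.89 and -1.66).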
